A study of Arabidopsis thaliana with 39 samples.

Results

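The 9 genes described here encode the antenna proteins of photosystem I (PSI) and the minor antenna proteins of photosystem II (PSII) of *Arabidopsis thaliana*. They are *LHCA1*, *LHCA2*, *LHCA3* and *LHCA4*, which encode the PSI antenna, *LHCB4.1*, *LHCB4.2* and *LHCB4.3*, which encode forms of CP29, *LHCB5*, which encodes CP26, and *LHCB6*, which encodes CP24. The genes were chosen by their locus identifiers, with earlier results of these data known, and make up 9 of the 33110 genes in the count table. All 9 passed the filter on low counts in every comparison.

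Light-harvesting proteins bind chlorophyll a, chlorophyll b and carotenoids in the thylakoid membrane and pass excitation energy to the reaction centres. On PSI, LHCA1 pairs with LHCA4 and LHCA2 pairs with LHCA3, and these dimers sit as a belt on one side of the core. CP29, CP26 and CP24 are monomers that lie between the PSII core and the trimeric major antenna, and CP29 and CP24 together hold one of the trimers. All are encoded in the nucleus, made in the cytosol and imported into the chloroplast, and their transcripts are known to decline as leaves age.

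Transcripts were measured in rosettes of the wild type Col-0, of *slim1-cr* and of *35S::SLIM1 #17* and *#25*, each at 30, 37 and 44 days after sowing (DAS). In *slim1-cr* CRISPR/Cas9 had removed part of *SLIM1*, including the sequence of its DNA binding domains. The lines *#17* and *#25* are independent and carry the *SLIM1* coding sequence behind the constitutive 35S promoter. The empty vector line *EV* was harvested at 30 DAS only. *SLIM1* encodes an ETHYLENE-INSENSITIVE3-like transcription factor known for its role under sulfur limitation. All plants grew with sufficient nutrients in long days and under the same conditions in soil. With 3 biological replicates in each of 13 groups there were 39 strand-specific libraries of polyadenylated RNA. The overexpressors were homozygous T2 plants of lines kept for a single insert and were raised on hygromycin plates. *slim1-cr* is represented by 1 line. Stalks and reproductive organs were cut off before the harvest. Each age was harvested on its own day, and the effects of age and of harvest day cannot be told apart. P-values rest on the spread between the 3 libraries of a group, with 1 estimate per gene shared by all groups fitted together.

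The depth of the libraries was 38.4 to 46.2 M counts (median 45.5 M). The level of a gene is given as CPM, its counts per M counts of the library, scaled by the TMM factor of edgeR. *SLIM1* was at 18.1 to 22.9 CPM in Col-0, 19.8 to 22.4 CPM in *EV*, 0.669 to 2.59 CPM in *slim1-cr*, 141 to 356 CPM in *#17* and 82.3 to 325 CPM in *#25*, so every library followed its label. In 3 libraries the log2 CPM correlated less with the rest of their group than in the other 36, *slim1-cr* 3 at 30 DAS (0.9716), Col-0 1 at 37 DAS (0.966) and *slim1-cr* 2 at 37 DAS (0.9689), and results that changed without them are marked. Flower organ markers summed to 2.79 to 59.8 CPM over all 39 libraries, and to 33.6, 49.9 and 32.4 CPM in those 3. The seed storage genes *CRU3* and *SESA3* were at 0 in 39 of 39 libraries and the root hair gene *EXPA7* in 36. The other seed markers *CRA1* and *OLEO1* were at 0 in 3 and 26 libraries, and the other root marker *COBL9* in 5. No seed or root marker was above 0.414 CPM in any library. The tissue label was borne out by the mesophyll markers *RBCS1A*, *CA1* and *RCA*, which summed to 5010 CPM or more in every library.

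In the TAIR10.1 annotation *LHCA1* (AT3G54890) lies on the minus strand of chromosome 3 at 20339504 to 20341176, *LHCA2* (AT3G61470) on the plus strand of chromosome 3 at 22745514 to 22747444, *LHCA3* (AT1G61520) on the plus strand of chromosome 1 at 22699715 to 22701412 and *LHCA4* (AT3G47470) on the minus strand of chromosome 3 at 17493343 to 17495033. Each of these genes has 4 exons. Of the CP29 genes, *LHCB4.1* (AT5G01530) lies on the plus strand of chromosome 5 at 208866 to 210548, *LHCB4.2* (AT3G08940) on the plus strand of chromosome 3 at 2717557 to 2718923 and *LHCB4.3* (AT2G40100) on the plus strand of chromosome 2 at 16745628 to 16747424, all with 2 exons. *LHCB5* (AT4G10340) has 6 exons on the plus strand of chromosome 4 at 6408007 to 6409849, and *LHCB6* (AT1G15820) has 2 exons on the minus strand of chromosome 1 at 5446462 to 5447880. The encoded proteins have 241 (LHCA1) to 290 (LHCB4.1) residues. LHCB4.1 and LHCB4.2 are identical at 89.5% of aligned residues, and LHCB4.3, the divergent CP29, at 72.8% with LHCB4.1 and 70.7% with LHCB4.2. The transcripts of *LHCB4.1* and *LHCB4.2* share no stretch of 50 bases, so whole reads of this length can be told apart. *LHCA4*, *LHCB4.2* and *LHCB6* overlap genes on the opposite strand, *LHCA4* and *LHCB4.2* over 53 and 44 bases, and *LHCB6* over 103 bases of one gene and 358 bases of a long non-coding RNA. Whether strand was used in counting was not given in the sources used here.

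The upstream sequences of 5 of the genes are shown because members that moved together differ in the motifs they hold. Each is the 150 bases before the annotated gene start in TAIR10.1, written 5′ to 3′ on the strand of the gene, with matches to the G-box CACGTG, the I-box GATAAG and CCAATC in capitals, on either strand.
LHCA4 (chr3:17495034-17495183, minus strand): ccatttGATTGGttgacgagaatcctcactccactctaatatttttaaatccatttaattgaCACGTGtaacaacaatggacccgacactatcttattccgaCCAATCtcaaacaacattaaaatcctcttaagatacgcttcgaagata
LHCB4.1 (chr5:208716-208865, plus strand): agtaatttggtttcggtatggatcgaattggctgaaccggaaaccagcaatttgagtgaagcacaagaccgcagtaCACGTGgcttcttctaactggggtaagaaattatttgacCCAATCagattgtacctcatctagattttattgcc
LHCB4.2 (chr3:2717407-2717556, plus strand): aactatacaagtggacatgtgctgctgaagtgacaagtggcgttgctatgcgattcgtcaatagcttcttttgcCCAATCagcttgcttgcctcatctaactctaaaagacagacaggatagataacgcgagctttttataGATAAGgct
LHCB6 (chr1:5447881-5448030, minus strand): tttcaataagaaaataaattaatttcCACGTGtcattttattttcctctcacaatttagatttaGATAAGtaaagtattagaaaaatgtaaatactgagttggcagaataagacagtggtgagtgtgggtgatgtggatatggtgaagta
LHCB4.3 (chr2:16745478-16745627, plus strand): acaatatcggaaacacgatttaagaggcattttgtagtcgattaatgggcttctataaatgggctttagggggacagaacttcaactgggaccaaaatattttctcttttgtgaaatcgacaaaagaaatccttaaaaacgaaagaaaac

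Searched on both strands of the 300 bases upstream, the G-box, to which bZIP and bHLH factors bind, was found in 3 of the 9 genes (*LHCA4*, *LHCB4.1* and *LHCB6*) and in 7.09% of 27443 promoters of the same length. The I-box was found in 3 (*LHCA1*, *LHCB4.2* and *LHCB6*) and in 14.5% of all promoters, and CCAATC in 5 (*LHCA1*, *LHCA3*, *LHCA4*, *LHCB4.1* and *LHCB4.2*) and in 12.2%. In *LHCB6* the G-box ends 119 bases and the I-box 81 bases upstream of the gene start, in *LHCA4* the G-box ends 83 bases and in *LHCB4.1* 69 bases upstream. GAGAC, the core of a sulfur-responsive element, was in 2 (*LHCA1* and *LHCB4.2*) and in 30.0% of all promoters, and the enriched SLIM1 binding motif was in 0 of 9 and in 1.57% of all. *LHCA2*, *LHCB4.3* and *LHCB5* held none of these letters in this window, and sequence further upstream was not searched. These matches describe sequence and are not tested sites.

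Set side by side per kb of exon, the antenna genes of Col-0 at 30 DAS spanned a wide range of levels. *LHCA4* was at 6491 ± 429.5 CPM per kb (mean ± SD, n = 3), *LHCA1* at 6124 ± 291, *LHCB5* at 4944 ± 297 and *LHCB6* at 4939 ± 336. Below these came *LHCB4.1* at 3568 ± 257, *LHCA3* at 3346 ± 227, *LHCA2* at 3055 ± 248 and *LHCB4.2* at 2045 ± 164 CPM per kb, and *LHCB4.3* was far lower at 76.5 ± 12.0. The libraries of neighbours in this order overlapped for *LHCA4* and *LHCA1*, for *LHCB5* and *LHCB6*, and for the run from *LHCB4.1* through *LHCA3* to *LHCA2*, and the other neighbours did not overlap. *LHCA4* ranked first in all 13 groups. Together the 9 genes took 3.59 to 5.17% of all counts in the libraries of 30 DAS.

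**Figure D1:**
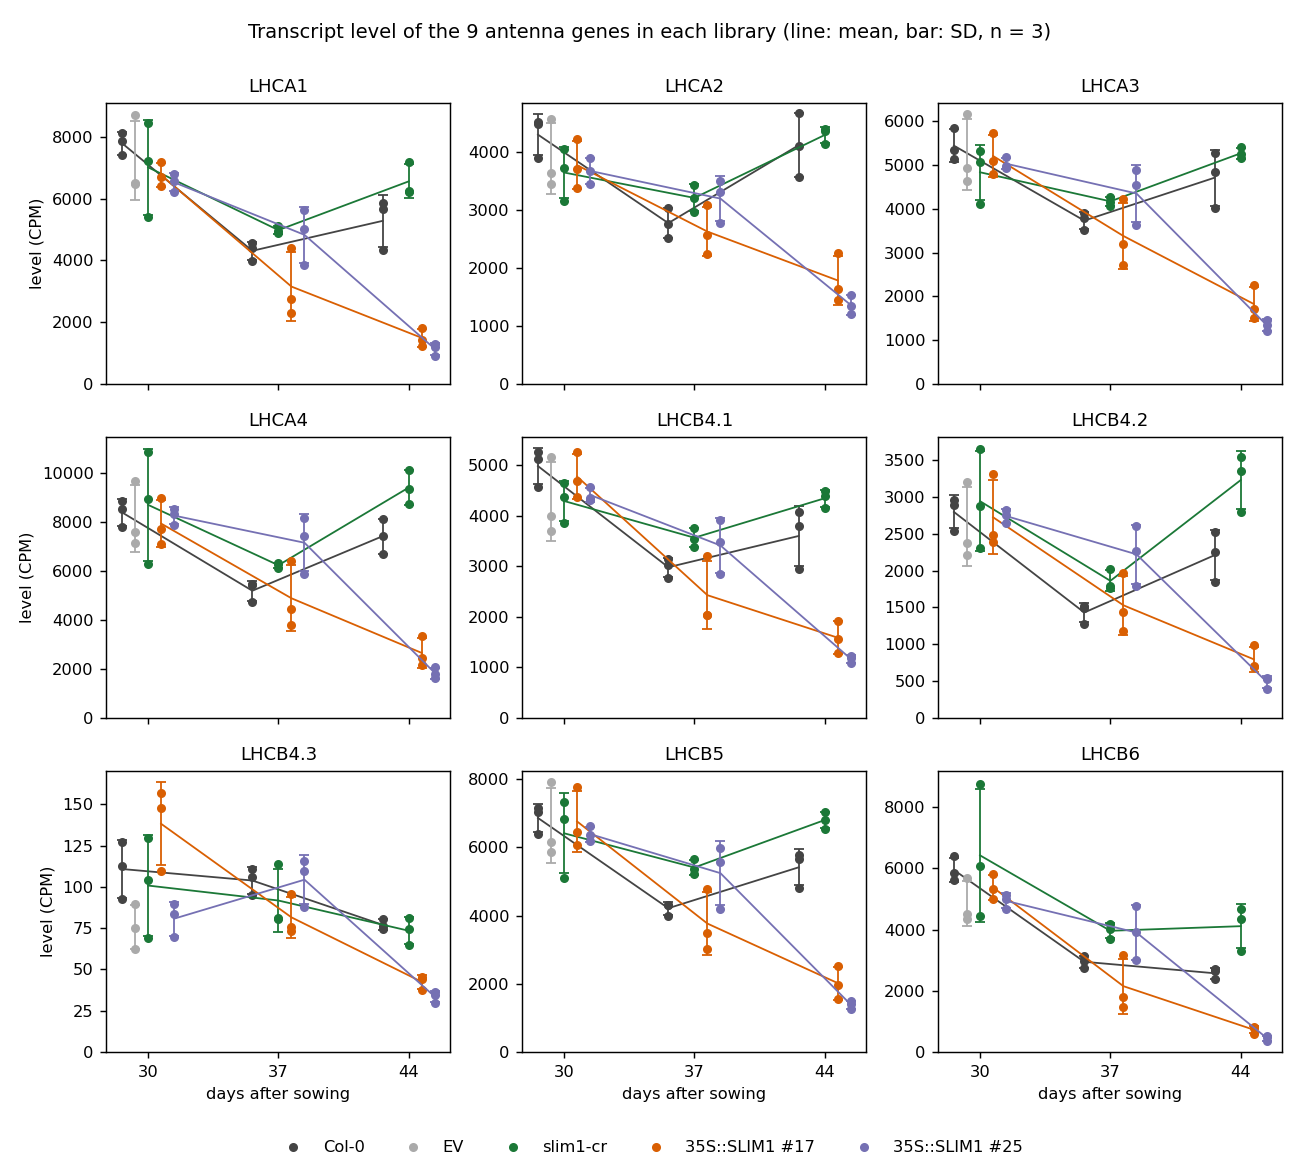
Level of each of the 9 antenna genes in every library, as CPM on a linear axis, by age and genotype, with 1 point per library (n = 3 per group). At 44 DAS all points of 35S::SLIM1 #17 and #25 lie below those of Col-0 for each gene, while at 30 DAS the groups overlap for most.

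At 30 DAS the antenna genes were close to Col-0 in all lines, with 0 of 9 called by edgeR at an adjusted p under 0.05 in *EV*, *slim1-cr*, *#17* and *#25*. Over all genes tested, 0%, 4.75%, 6.95% and 6.38% were called in these 4 comparisons in either direction. At an unadjusted p under 0.05 the count was 1 in *EV* (*LHCB4.3*, log2 fold change, log2FC, -0.55, with all libraries below Col-0 as in 8.75% of all genes) and 0 in the others, and DESeq2 called 0 in each. Across all genes, *EV* differed from Col-0 in 0 genes by edgeR, 713 higher and 1008 lower at an unadjusted p under 0.05, and 11 higher and 71 lower by DESeq2. The SE of the log2FC of the 9 genes lay between 0.130 and 0.216, and the log2FC of the 8 genes other than *LHCB4.3* between -0.29 and 0.12. In *#25* the libraries of *LHCA1*, *LHCB4.1*, *LHCB4.3* and *LHCB6* lay below all 3 of Col-0, a pattern that 19.3% of all genes had, and in *#17* those of *LHCA1* did, where the share over all genes was 15.6%.

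*LHCB4.3*, which encodes the divergent and least abundant CP29, was the member that varied most between the lines at 30 DAS. It was at 127, 92.6 and 112 CPM in Col-0 1, 2 and 3, at 75.1, 89.3 and 62.7 CPM in *EV*, at 148, 157 and 109.6 CPM in *#17* and at 83.3, 69.3 and 89.6 CPM in *#25*. In *slim1-cr* it was at 129.6, 104.0 and 68.8 CPM, a spread that overlapped every other line. All 3 *#17* libraries were above those of *EV* and *#25*, which 17% (*EV*) and 15% (*#25*) of all genes were, and they overlapped Col-0. Against *EV*, *LHCB4.3* was higher in *#17* with a log2FC of 0.87 (adjusted p = 0.0205, SE 0.22), and it was the only member called there, beside 7.16% of all genes called higher. This call was lost without *EV* 1 or 3 or *#17* 1 or 2 (log2FC 0.77 to 1.01 over the fits with 1 library fewer), and with the level of flower organ markers as a covariate. Against *EV*, *#25* gave 0 calls of 9 by edgeR, by unadjusted p and by DESeq2, beside 5.52% of all genes in either direction. Between the overexpressors, *LHCB4.3* had a log2FC of -0.77 (adjusted p = 0.0857, SE 0.22) in *#25* against *#17* and was called by DESeq2. By edgeR 0 of 9 were called in that comparison, 1 at an unadjusted p under 0.05, beside 1.69% of all genes.

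At 37 DAS the PSI antenna genes of *#17* and *#25* did not pass the test against Col-0, and 1 CP29 gene was called higher in *#25* than in Col-0. *LHCB4.2* was at 1521, 1494 and 1279 CPM in Col-0, against 2599, 1795 and 2268 CPM in *#25*, and the groups did not overlap. Its log2FC was 0.61 (adjusted p = 0.0411, SE 0.19), and it was the 1 of 9 called, beside 12.5% of all genes called higher. The call was lost without any one of Col-0 1, 2 and 3 or *#25* 1 or 3, with library size alone as the scaling, with the flower marker covariate, and without the 3 libraries that stood apart (log2FC 0.49 to 0.74 with 1 library fewer). *LHCA4* in *#25* was also above all Col-0 libraries, with a log2FC of 0.44 (adjusted p = 0.128, SE 0.19), and 23.1% of all genes showed this separation. The log2FC of the other 7 genes in *#25* lay between -0.01 (*LHCB4.3*) and 0.38 (*LHCB6*).

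In *#17* at 37 DAS 0 of 9 were called by edgeR, 0 at an unadjusted p under 0.05 and 0 by DESeq2, where 36.8% of all genes were called in either direction. One *#17* library stood apart for these genes. *LHCA1* was at 4554, 4402 and 3981 CPM in Col-0 1, 2 and 3 and at 2753, 2302 and 4407 CPM in *#17* 1, 2 and 3, and *LHCB6* at 2961, 3129 and 2749.6 CPM in Col-0, against 1793, 1482 and 3175 CPM in *#17*. For both genes *#17* 1 and 2 were below all Col-0 libraries and *#17* 3 was within or above them. The log2FC were -0.45 (adjusted p = 0.126, SE 0.22) for *LHCA1* and -0.46 (adjusted p = 0.178, SE 0.25) for *LHCB6*. Without *#17* 3, 3 genes were called lower, where *LHCA1* fell by 0.76, *LHCB4.1* by 0.54 and *LHCB6* by 0.84 on the log2 scale. The mesophyll markers of *#17* at 37 DAS summed to 8746, 9514 and 16090 CPM, in ascending order, against 16040 to 17470 CPM in Col-0.

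Directly compared at 37 DAS, *#25* against *#17* had positive log2FC for all 9 genes, from 0.26 (*LHCA2*) to 0.84 (*LHCB6*, SE 0.26, adjusted p = 0.0664). By edgeR 0 of 9 passed, with 6 at an unadjusted p under 0.05 and 6 called by DESeq2, beside 8.25% of all genes called by edgeR in either direction. With all 39 libraries in one fit 4 passed, and without *#17* 3, 7 did. All 9 genes overlapped between the lines.

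In *slim1-cr* at 37 DAS 0 of 9 were called by edgeR, 0 at an unadjusted p under 0.05 and 0 by DESeq2, beside 5.54% of all genes in either direction. The libraries of 7 genes, all but *LHCA2* and *LHCB4.3*, nevertheless lay above those of Col-0, which 16.7% of all genes did. *LHCB6*, at 2961, 3129 and 2749.6 CPM in Col-0, was at 3695, 4168 and 4015 CPM in *slim1-cr*, with a log2FC of 0.41 (adjusted p = 0.326, SE 0.25). The median log2FC of the 9 genes was 0.24 in *slim1-cr*, against -0.01 over all genes.

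At 44 DAS all 9 antenna genes were lower in both overexpressors than in Col-0, and no library of either line overlapped Col-0 for any of them. All 9 were called lower in *#17*, where 20.6% of all genes were, and all 9 in *#25*, where 23.2% were. Non-overlapping lower libraries were found for 27.3% and 31.9% of all genes. The median log2FC of the 9 genes was -1.41 in *#17* and -1.93 in *#25*, against -0.01 and 0.01 over all genes. The comparisons share the 3 Col-0 libraries and are therefore not independent. In bulk rosette RNA, fewer cells that express these genes and less of their RNA per cell cannot be told apart.

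Of the PSI antenna, *LHCA1* fell most. It was at 5866, 5654 and 4325 CPM in Col-0, 1819, 1223 and 1439 CPM in *#17* and 1298, 918 and 1196 CPM in *#25* at 44 DAS. The highest *#17* library was thus far below the lowest Col-0 library, with a log2FC of -1.81 (adjusted p = 0.000116, SE 0.20) in *#17* and -2.18 (adjusted p = 3.21e-05, SE 0.21) in *#25*, which are fitted folds of 0.285 and 0.220. Its partner *LHCA4* was at 7458, 8133 and 6709 CPM in Col-0, 3359.7, 2167 and 2448 CPM in *#17* and 2079.6, 1639 and 1795 CPM in *#25*. The log2FC of *LHCA4* were -1.47 (adjusted p = 0.000241, SE 0.19) and -1.98 (adjusted p = 3.66e-05, SE 0.19) in the same order, and *#25* lay below *#17* in all libraries.

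*LHCA2* and *LHCA3* encode the other PSI dimer, and they fell less than *LHCA1* in both lines. *LHCA2* was at 4113, 4670.4 and 3571 CPM in Col-0, 2267, 1457 and 1634 CPM in *#17* and 1338, 1204 and 1543 CPM in *#25*, which gave log2FC of -1.19 (adjusted p = 0.000813, SE 0.19) and -1.56 (adjusted p = 0.000137, SE 0.19). *LHCA3* was at 4841, 5269 and 4010.0 CPM in Col-0, 2262, 1513 and 1702 CPM in *#17* and 1471, 1202 and 1345 CPM in *#25*, which gave log2FC of -1.36 (adjusted p = 0.000289, SE 0.18) and -1.78 (adjusted p = 4.91e-05, SE 0.18). Whether the genes differed in the size of their change was not tested.

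Among the CP29 genes, *LHCB4.2* fell to a lower log2FC than *LHCB4.1* in both lines. *LHCB4.1* was at 3791, 4067 and 2939 CPM in Col-0, 1924, 1279 and 1559 CPM in *#17* and 1184, 1084 and 1234 CPM in *#25*, which gave log2FC of -1.17 (adjusted p = 0.000672, SE 0.18) and -1.59 (adjusted p = 9.06e-05, SE 0.18). *LHCB4.2* was at 2254, 2523 and 1852 CPM in Col-0, 989, 707 and 693 CPM in *#17* and 544, 393 and 531 CPM in *#25*, which gave log2FC of -1.46 (adjusted p = 0.000377, SE 0.20) and -2.14 (adjusted p = 3.75e-05, SE 0.21). Both CP29 genes stood clear of Col-0 in every library of either line, and for both *#25* was below *#17*. The minor form *LHCB4.3* changed least of the 9, from 74.3, 80.7 and 76.0 CPM in Col-0 to 37.6, 45.5 and 44.3 CPM in *#17* and 34.3, 29.7 and 36.5 CPM in *#25*. The libraries of each group lay close together and the groups did not overlap, with log2FC of -0.85 (adjusted p = 0.000237, SE 0.11) and -1.17 (adjusted p = 3.05e-05, SE 0.11).

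*LHCB5*, the gene of CP26, was at 5676, 5766 and 4812 CPM in Col-0, 2525, 1562 and 1973 CPM in *#17* and 1483, 1263 and 1419 CPM in *#25*, which gave log2FC of -1.41 (adjusted p = 0.000247, SE 0.18) and -1.93 (adjusted p = 3.47e-05, SE 0.19). *LHCB6*, the gene of CP24, was at 2699.8, 2641 and 2374 CPM in Col-0, 803, 588 and 790.1 CPM in *#17* and 514, 363 and 492 CPM in *#25*. Its log2FC of -1.81 (adjusted p = 0.000103, SE 0.20) and -2.46 (adjusted p = 1.68e-05, SE 0.20), fitted folds of 0.285 and 0.181, made it the member with the lowest value in *#25*. All 18 of these calls held with any one library left out, the highest adjusted p being 0.0049 in *#17* and 0.00126 in *#25*.

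**Figure D2:**
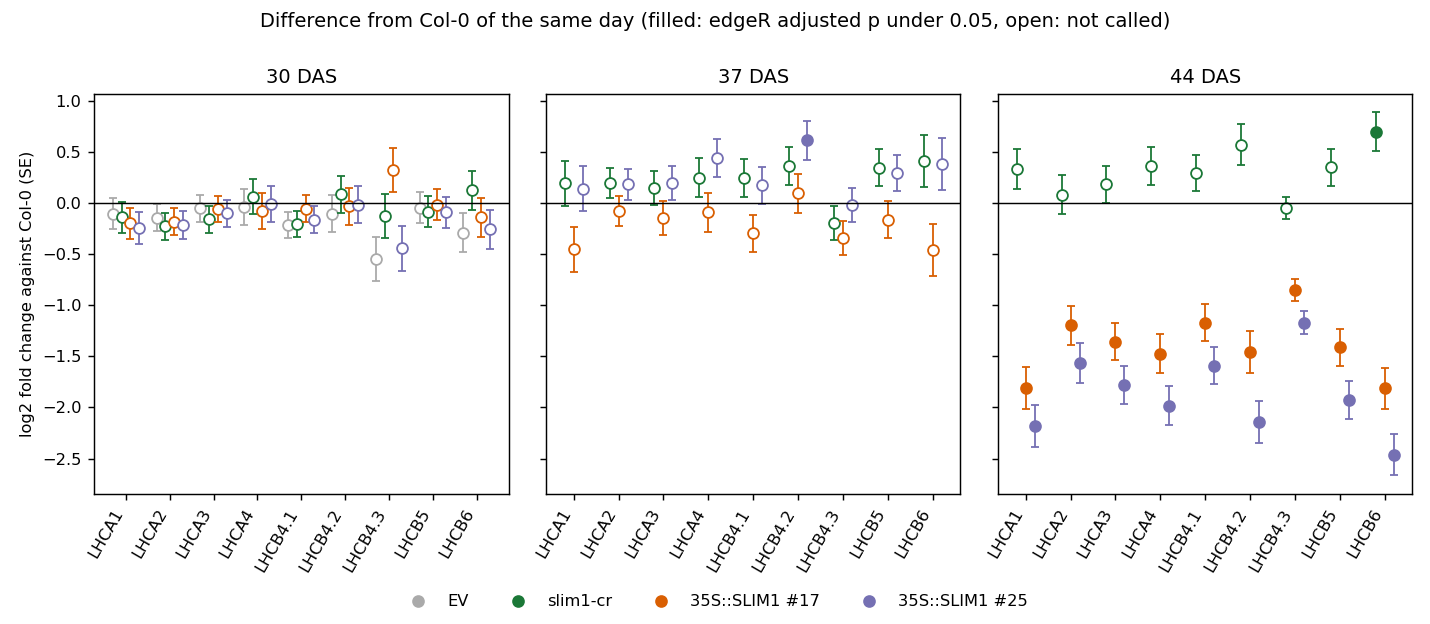
Log2 fold change against Col-0 of the same day for each of the 9 antenna genes, by genotype and age, with bars of 1 SE on either side (n = 3 libraries per group, edgeR). The values of both overexpressors lie between -0.44 and 0.32 at 30 DAS and between -0.85 and -2.46 at 44 DAS, and those of slim1-cr lie between -0.05 and 0.70 at 44 DAS.

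In *slim1-cr* at 44 DAS, *LHCB6* was higher and the other 8 genes did not pass. *LHCB6* was at 2699.8, 2641 and 2374 CPM in Col-0, against 4664, 3305 and 4359.9 CPM in *slim1-cr*, with no overlap. Its log2FC of 0.70 (adjusted p = 0.0474, SE 0.19) was the 1 call of 9, beside 6.21% of all genes called higher, and it was kept without *slim1-cr* 2 and lost without any other library (log2FC 0.60 to 0.84). *LHCB4.2* was at 3542, 2795 and 3348 CPM in *slim1-cr*, above all Col-0 libraries, with a log2FC of 0.57 (adjusted p = 0.0783, SE 0.20). The libraries of 6 genes (*LHCA1*, *LHCA4*, *LHCB4.1*, *LHCB4.2*, *LHCB5* and *LHCB6*) lay above Col-0, against 17.2% of all genes. The median log2FC of the 9 was 0.33, and 0.03 over all genes.

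Between the overexpressors at 44 DAS, all 9 genes had a lower estimate in *#25* than in *#17*, from -0.32 (*LHCB4.3*) to -0.68 (*LHCB4.2*), with a median of -0.42. By edgeR 0 of 9 passed, with adjusted p of 0.540 to 0.705, 7 were lower at an unadjusted p under 0.05, and DESeq2 called 0. Over all genes 0.00976% were called in either direction. In 7 genes, all but *LHCA1* and *LHCA2*, every *#25* library was below every *#17* library, which 9.88% of all genes were.

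With age, 8 of the 9 antenna genes of Col-0 fell from 30 to 37 DAS, beside 16% of all genes called lower. *LHCB6* went from 6393, 5841 and 5604 to 2961, 3129 and 2749.6 CPM, the lowest log2FC at -1.01 (adjusted p = 0.00102, SE 0.22), and *LHCA3* had the smallest fall at -0.54 (adjusted p = 0.00679, SE 0.15). *LHCB4.3* went from 127, 92.6 and 112 to 111, 106 and 94.9 CPM with a log2FC of -0.09 (adjusted p = 0.725, SE 0.18), and its libraries overlapped.

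From 37 to 44 DAS edgeR called 3 of the 9 antenna genes of Col-0 higher and 1 lower, and DESeq2 called 5 higher and 0 lower. A difference between the genes in this change was not tested. *LHCA2* rose by 0.57 (adjusted p = 0.00265, SE 0.15), *LHCA4* by 0.52 (adjusted p = 0.0202, SE 0.18) and *LHCB4.2* by 0.63 (adjusted p = 0.00856, SE 0.19) on the log2 scale, 3 of 9 beside 24.5% of all genes called higher. *LHCB4.3* fell to a log2FC of -0.43 (adjusted p = 0.0496, SE 0.18), 1 of 9 beside 26.8% of all genes called lower, close to the threshold. It was lost under 5 other ways of processing and kept only without Col-0 3 of 37 DAS among fits with 1 library fewer (log2FC -0.49 to -0.38). *LHCB6* continued from 2961, 3129 and 2749.6 to 2699.8, 2641 and 2374 CPM, lower in all libraries as were 28.9% of all genes, with a log2FC of -0.20 (adjusted p = 0.476, SE 0.22). The rise of *LHCA4* did not pass without Col-0 3 of 37 DAS or Col-0 2 of 44 DAS (0.45 to 0.58) and that of *LHCB4.2* without the latter (0.53 to 0.74).

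In *slim1-cr* the fall from 30 to 37 DAS passed for 2 of 9 genes, *LHCB4.2* at -0.66 (adjusted p = 0.0230, SE 0.19) and *LHCB6* at -0.70 (adjusted p = 0.0349, SE 0.22), beside 5.6% of all genes called lower. At 30 DAS the 3 *slim1-cr* libraries lay far from each other, with coefficients of variation of 9.2 to 33.9% over the 9 genes against 4.75 to 15.7% in Col-0. *LHCB6* was at 8756, 6079 and 4437 CPM in *slim1-cr* 1, 2 and 3, where the third library is one of those that stood apart, and without the libraries apart 5 of 9 were lower. From 37 to 44 DAS *LHCA2*, *LHCA4* and *LHCB4.2* rose by 0.42, 0.59 and 0.79 on the log2 scale, beside 21.4% of all genes called higher. The fall of *LHCB4.2* was kept only without *slim1-cr* 3 of 30 or 37 DAS (-0.81 to -0.48), that of *LHCB6* only without *slim1-cr* 3 of 30 DAS (-0.90 to -0.41), and the rise of *LHCA2* only without *slim1-cr* 3 of 37 DAS (0.35 to 0.47).

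In *#17* all 9 genes fell from 30 to 37 DAS, with log2FC from -0.52 (*LHCA2*) to -1.32 (*LHCB6*), beside 29.9% of all genes. They fell again from 37 to 44 DAS, from -0.56 (*LHCA2*) to -1.56 (*LHCB6*), beside 26.8% of all genes, and only *LHCA2* overlapped between the days, where 28.9% of all genes were lower with no overlap. In this last interval the call of *LHCA2* was lost without *#17* 2 of 44 DAS (-0.77 to -0.38) and that of *LHCB4.1* without it or *#17* 3 of 37 DAS (-0.78 to -0.36). In *#25* 0 of 9 were called from 30 to 37 DAS by edgeR, 2 at an unadjusted p under 0.05 and 2 by DESeq2, beside 32.9% of all genes in either direction. From 37 to 44 DAS all 9 fell in *#25*, from -1.23 (adjusted p = 7.93e-08, SE 0.15) for *LHCA2* to -3.10 (adjusted p = 1.88e-11, SE 0.24) for *LHCB6*, beside 36.5% of all genes. *LHCB6* of *#25* was at 5001, 4669 and 5141 CPM at 30 DAS, 4785, 3017 and 3903 CPM at 37 DAS and 514, 363 and 492 CPM at 44 DAS, so that most of its fall came in the last interval. In *#17* the same gene went from 5013, 5313 and 5801 CPM to 1793, 1482 and 3175 CPM and 803, 588 and 790.1 CPM, with a step in each. That the lines differed in their course was not tested as such.

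The difference from Col-0 changed between 30 and 44 DAS for all 9 genes in both overexpressors when tested as an interaction in one fit of the 39 libraries. The log2 change of the difference ran from -1.02 (*LHCA2*) to -1.68 (*LHCB6*) in *#17*, with adjusted p of at most 0.00138, and from -0.75 (*LHCB4.3*, adjusted p = 0.0293) to -2.23 (*LHCB6*) in *#25*. Over all genes 15.1% and 18.5% had a lower interaction. That of *LHCB4.3* in *#25* was lost without Col-0 2 or *#25* 3 of 30 DAS or *#25* 2 of 44 DAS (-0.88 to -0.64). In *slim1-cr* 0 of 9 changed by edgeR, 1 at an unadjusted p under 0.05 and 0 by DESeq2, beside 6.81% of all genes in either direction. From 30 to 37 DAS 0 of 9 passed in *slim1-cr*, *#17* and *#25*, with 2, 1 and 2 at an unadjusted p under 0.05 and 0 by DESeq2 in each, beside 0.0665%, 24.5% and 14.8% of all genes.

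The shares of some genes in the antenna transcripts shifted with age, among them *LHCB6*, *LHCA2*, *LHCA1* and *LHCA4*, while that of *LHCB5*, for example, changed little. Of the summed CPM per kb of exon of the 9 genes, *LHCB6* took on average 14.3% in Col-0 at 30 DAS, 12.0% at 37 DAS and 8.26% at 44 DAS. Its share went from 13.9% to 6.47% in *#17*, from 13.2% to 5.63% in *#25* and from 15.9% to 10.4% in *slim1-cr* over the same ages. The share of *LHCA2*, on the same per kb scale, went the other way, from 8.82% to 11.2% in Col-0, from 8.33% to 13.4% in *#17*, from 8.38% to 14.5% in *#25* and from 7.95% to 9.39% in *slim1-cr*. The share of *LHCA1* fell from 17.7% to 15.9% in Col-0, 16.6% to 12.5% in *#17*, 16.5% to 13.3% in *#25* and 16.7% to 15.8% in *slim1-cr*. That of *LHCA4* rose from 18.8% to 22.1%, 19.1% to 21.7%, 20.5% to 21.2% and 20.2% to 22.4% in the same order. Ranked per kb, *LHCB6* went from place 4 at 30 DAS to place 7 at 44 DAS in Col-0, *#17* and *#25*, and from place 3 to place 4 in *slim1-cr*.

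Library by library, the ratio of *LHCB6* to *LHCA2* per kb of exon set *slim1-cr*, Col-0 and the overexpressors apart at 44 DAS, while *#17* and *#25* overlapped. It was 1.66, 1.75 and 1.46 in Col-0 1, 2 and 3 at 30 DAS, 1.25, 1.2 and 1.27 at 37 DAS and 0.768, 0.661 and 0.778 at 44 DAS, and the 3 ages did not overlap. At 44 DAS it was 1.25, 0.935 and 1.16 in *slim1-cr*, against 0.414, 0.472 and 0.565 in *#17* and 0.449, 0.353 and 0.373 in *#25*. All *slim1-cr* libraries were above and all overexpressor libraries below those of Col-0. At 30 DAS *slim1-cr* had a ratio of 2.53, 1.9 and 1.64, which overlapped Col-0. At 37 DAS *#17* had a ratio of 0.818, 0.773 and 1.2 and *#25* one of 1.59, 1.27 and 1.38, with 1.45, 1.52 and 1.36 for *slim1-cr*, so that no *#25* library was below the range of Col-0 at that age. These genes were set side by side after their values had been seen, and the ratio is given as a description with no test.

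The ratio of *LHCB4.2* to *LHCB4.1*, the similar CP29 genes, per kb of exon was 0.561, 0.567 and 0.591 in Col-0 at 30 DAS, 0.512, 0.486 and 0.471 at 37 DAS and 0.607, 0.633 and 0.643 at 44 DAS. At 44 DAS it was 0.805, 0.686 and 0.780 in *slim1-cr*, against 0.525, 0.565 and 0.454 in *#17* and 0.469, 0.370 and 0.439 in *#25*. At that age *slim1-cr* was above and both overexpressors were below Col-0 in every library. At 37 DAS *#17* had a ratio of 0.719, 0.593 and 0.627 and *#25* one of 0.677, 0.646 and 0.667, with 0.539, 0.511 and 0.549 for *slim1-cr*. There every overexpressor library was above Col-0, the reverse of 44 DAS. At 30 DAS the ratio was 0.633, 0.609 and 0.609 in *EV*, 0.632, 0.65 and 0.622 in *#25* and 0.803, 0.673 and 0.608 in *slim1-cr*. All libraries of these lines, the empty vector line included, were above Col-0 at that age, while *#17* overlapped it (0.557, 0.541 and 0.641). Separation from Col-0 in this ratio was thus not confined to lines with altered *SLIM1*, and it was not tested.

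**Figure D3:**
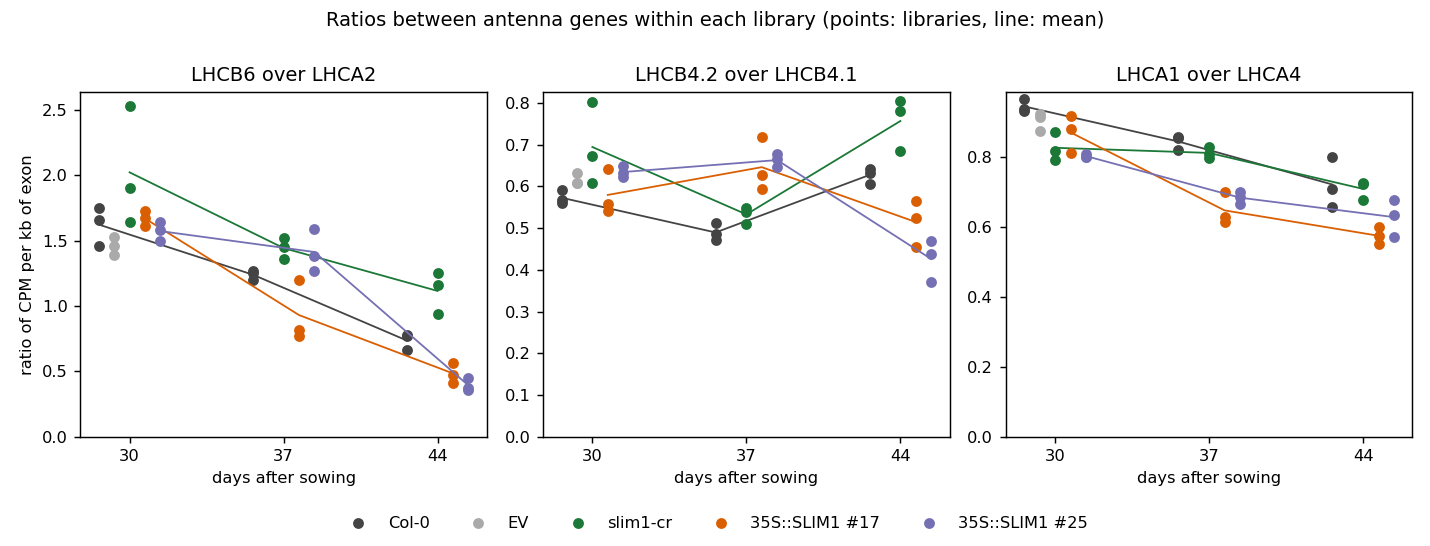
Ratios of the level per kb of exon between pairs of antenna genes in every library, by age and genotype (1 point per library, n = 3 per group, no unit). At 44 DAS the LHCB6 to LHCA2 ratio is 0.935 to 1.25 in slim1-cr, 0.661 to 0.778 in Col-0 and 0.353 to 0.565 in the overexpressors.

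Over the 13 group means the log2 CPM of the 9 genes correlated with each other at Pearson's r of 0.927 to 0.996, leaving out *LHCB4.3*, and the pair closest to each other was *LHCA3* and *LHCB5* (0.996). *LHCB4.3* correlated with the others at 0.774 to 0.882. These r describe groups that share harvest days and genotypes and are given with no test. Of 16685 other genes with a mean log2 CPM above 1, those most like the mean log2 CPM of the 9 over the 13 groups were AT1G21500 (r = 0.995), *PTAC16* (0.993), AT4G39970 (0.992), *PSI-P* (0.992) and *HCF136* (0.992).

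Beside other parts of the photosynthetic apparatus at 44 DAS, the 9 genes fell less than the major antenna and about as much as the PSI core by their medians, a comparison that was not tested. Of 9 genes of the major PSII antenna, LHCII, 9 were lower in *#17* and 9 in *#25*, with median log2FC of -2.82 and -3.59. The largest were *LHCB1.4* at -4.61 and -5.95 and *LHCB1.1* at -3.57 and -4.41. Of 12 nuclear genes of the PSI core, 12 were lower in each line, with medians of -1.38 and -1.81, among them *PSAK* (-1.57 and -2.26) and *PSAF* (-1.54 and -2.08). Of 11 nuclear genes of PSII subunits, 11 were lower in each, with medians of -1.22 and -1.56, and *PSBTN* (-1.84 and -2.34) and *PSBQ1* (-1.80 and -2.21) had the lowest values called. In *slim1-cr* 2 LHCII genes were higher, *LHCB1.2* (0.92) and *LHCB2.4* (0.90), and 1 of the PSI core, *PSAH2* (0.64).

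The 3 rarer light-harvesting genes outside the main antenna were lower in both lines at 44 DAS. *LHCA6*, whose product links PSI to the chloroplast NDH complex, had log2FC of -2.64 and -3.40, *LHCA5*, with a like role, -0.99 and -1.06, and *LHCB7* -0.60 and -0.54. *LHCB7* was also lower in *slim1-cr*, at -0.53. *LHCA6* was lower in *#17* at 37 DAS (-0.98) and in *#25* at 30 DAS (-0.49), when 0 of the 9 genes were called in these comparisons.

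**Figure D4:**
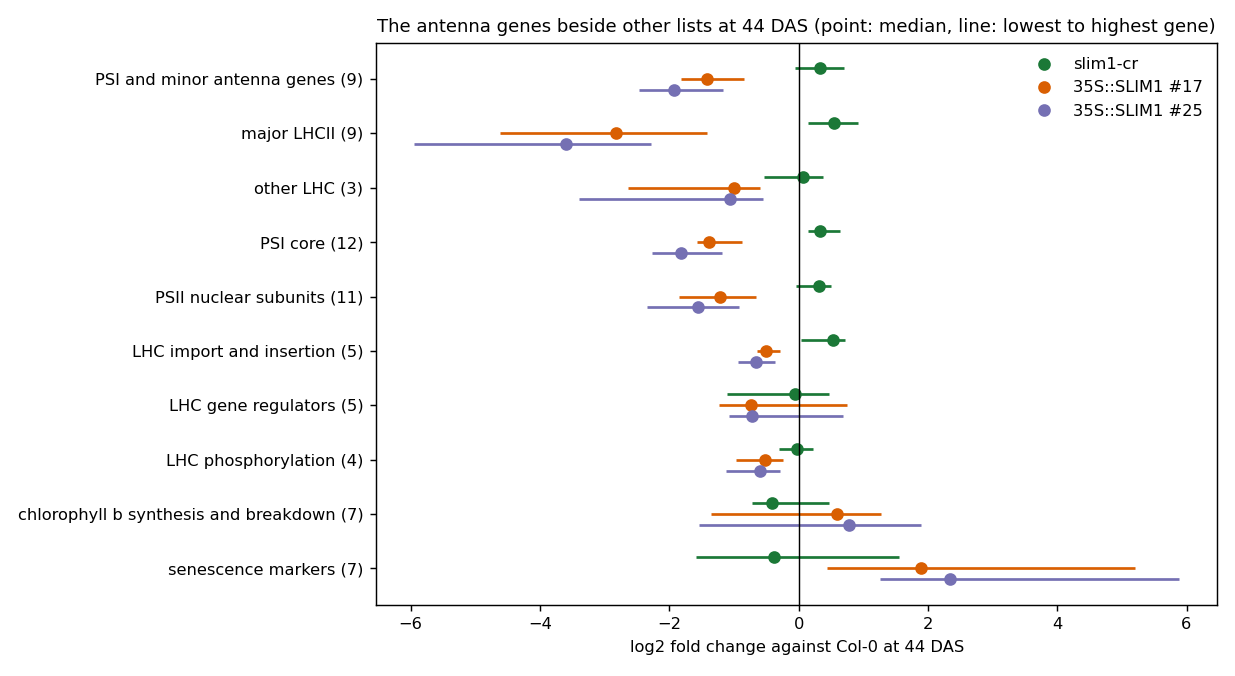
Median (point) and range (line) of the log2 fold change against Col-0 at 44 DAS for the 9 antenna genes and other gene lists, with the number of genes tested in brackets. The medians of the 9 genes are 0.33 in slim1-cr, -1.41 in 35S::SLIM1 #17 and -1.93 in #25, those of the major LHCII genes lie lower in both overexpressors, and those of senescence markers lie above 0 in both.

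Most genes that carry antenna proteins into the thylakoid were lower in both overexpressors at 44 DAS and higher in *slim1-cr*. CPSRP43, CPSRP54 and their receptor CPFTSY bring the imported proteins to the insertase ALB3, and LTD delivers them to the signal recognition particle. Of these 5 genes 4 were lower in *#17* at 44 DAS, *CPSRP43* (-0.64), *CPSRP54* (-0.51), *ALB3* (-0.50) and *CPFTSY* (-0.28), and 5 were lower in *#25*, the same with -0.93, -0.73, -0.56 and -0.37, and *LTD* with -0.65. In *slim1-cr* 4 of 5 were higher, *CPSRP54* (0.72), *LTD* (0.66), *CPSRP43* (0.53) and *CPFTSY* (0.38). At 37 DAS *CPFTSY* was lower in *#17* (-0.37).

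The transcription factor genes known to act on antenna genes did not all move the way the antenna genes did. GLK1 and GLK2 activate genes of the photosynthetic apparatus, GNC and GNL are GATA factors of chloroplast development, and HY5 is a bZIP factor of light signalling. At 37 DAS, when 0 (*#17*) and 1 (*#25*) of the antenna genes were called, 4 of these regulators were lower in both lines, *GLK1* (-0.74 in *#17* and -0.93 in *#25*), *GLK2* (-1.28 and -1.51), *GNC* (-1.44 and -1.95) and *GNL* (-1.12 and -2.24). At 44 DAS *GLK2* (-1.06 and -1.07) and *GNC* (-0.74 and -0.90) were lower and *GLK1* was higher (0.75 and 0.69), and 0 of 5 passed in *slim1-cr*. At 30 DAS *GNC* (-0.44) and *GNL* (-0.79) were lower in *slim1-cr*, and *GNL* was lower (-1.33) and *GLK1* higher (0.45) in *#17*. In Col-0 from 30 to 37 DAS, when 8 of the antenna genes fell, *GLK1* (0.46), *HY5* (0.71), *GNC* (0.54) and *GNL* (1.19) rose.

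Genes of chlorophyll b and of senescence also moved in the overexpressors at 44 DAS, and not all in the direction of the antenna genes. *CAO*, the oxygenase that makes chlorophyll b, was lower in both lines (-1.35 in *#17* and -1.54 in *#25*), while *SGR1* (1.27 and 1.89) and *NYC1* (1.11 and 1.78), which act in chlorophyll breakdown, were higher. In all 4 of 7 and 5 of 7 genes of that list were higher and 1 was lower in each line, and in *slim1-cr* *PAO* was lower (-0.71). Of 4 genes of kinases and phosphatases that act on thylakoid proteins, 3 were lower in each line, among them *STN8* (-0.96 and -1.12) and *PBCP* (-0.67 and -0.73). Of 7 senescence markers, 3 were higher in *#17* and 7 in *#25*, beside 19.8% and 22.8% of all genes called higher, and 0 passed in *slim1-cr*. *SWEET15*, a sugar transporter gene, had log2FC of 2.95 in *#17*, but was at 8.11 CPM or less in every library. *SAG12*, a protease gene of late senescence, had log2FC of 5.89 in *#25*. It was at 0 in 4 libraries of the series and reached 847 CPM.

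Against Col-0 at 44 DAS, mesophyll markers moved with the antenna genes, and in the overexpressors the summed senescence markers moved the other way. The part of these markers in the result was not tested. Within Col-0 the mesophyll markers did not move with the PSI antenna genes from 37 to 44 DAS. The markers summed to 16040 to 17470 CPM at 37 DAS and 11520 to 15290 CPM at 44 DAS. The 4 PSI antenna genes summed to 14740 to 16800 CPM and 18610 to 23730 CPM on these days. The senescence markers summed to 75.9 to 166.5 CPM in Col-0 at 44 DAS, 33.2 to 176 CPM in *slim1-cr*, 367.5 to 1085 CPM in *#17* and 762 to 1375 CPM in *#25*. The 3 mesophyll markers summed to 11520 to 15290 CPM in Col-0, 16490 to 17780 CPM in *slim1-cr*, 6173 to 8268 CPM in *#17* and 5010 to 6096 CPM in *#25*. Of these markers 2 were lower in *#17* and 3 in *#25*, among them *CA1* (-3.39 and -3.97) and *RBCS1A* (-1.49 and -1.97). Epidermis and guard cell markers summed to 251.5 to 332.8 CPM in Col-0, 366.8 to 554.4 CPM in *slim1-cr*, where *LHCB6* was higher and 1 of these 6 markers was called higher, 218.4 to 283.0 CPM in *#17* and 200.8 to 217.1 CPM in *#25*, with 1 and 2 of 6 called lower. Vascular markers summed to 414.7 to 629.9 CPM in Col-0, 389.2 to 512.7 CPM in *slim1-cr*, 518.4 to 565.2 CPM in *#17* and 515.8 to 611.5 CPM in *#25*, ranges that overlapped Col-0, with 2 of 5 called lower and 0 higher in each overexpressor. Flower organ markers summed to 17.9 to 25.2 CPM in Col-0, 15.7 to 27.6 CPM in *slim1-cr*, 2.79 to 24.6 CPM in *#17* and 3.01 to 15.5 CPM in *#25*, with 0 of 7 called lower in *#17* and 2 in *#25*. The root and seed markers did not pass the filter on low counts at 44 DAS. The 9 antenna genes took 2.87 to 3.46% of all counts in Col-0 at 44 DAS, 3.81 to 4.33% in *slim1-cr*, 1.18 to 1.57% in *#17* and 0.872 to 1.09% in *#25*. The groups of this share did not overlap.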

How the data were processed

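Transcripts were measured by RNA-seq in 39 rosette libraries of 13 groups, grouped by the genotype and age in the labels. The authors deposited a table of raw counts for 33110 genes in which each library has a column of its own. The sequencing provider cleaned the reads with SOAPnuke, and the authors mapped and counted them with CLC Genomics Workbench on TAIR10 with Araport11 and normalized with DESeq2 1.40.2. Their table of median-ratio normalized values was not used. 

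Groups were compared by the quasi-likelihood F test of edgeR 4.0.16 in R 4.3.3 (filterByExpr, TMM factors, robust fit). Libraries of 1 day were fitted together, and changes with age and interactions came from a fit of all 13 groups. The Benjamini-Hochberg adjustment ran over the 20274, 20296 and 20499 genes tested at 30, 37 and 44 DAS and the 21040 of the common fit, with a threshold of 0.05, in 29 comparisons. SE is the size of the log2FC divided by the square root of F. "Not overlapping" means that all libraries of one group lie above all of the other in CPM. The script was tested on simulated data. Depth was similar in all libraries and the spread between replicates set the precision.

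Levels per kb use the union of exons in TAIR10.1. Promoters were cut from the TAIR10.1 genome upstream of the gene start of its RefSeq annotation with Python 3.11.15, and proteins were translated from the same annotation and aligned with Biopython 1.88. Genes named are the 9 members, *SLIM1*, called genes of the regulator, import and other light-harvesting lists, up to 2 called genes with the largest change of each other list at 44 DAS, and the 5 genes most like the members. The genes, lists and comparisons were chosen with earlier results of these data known.

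Replicate numbers are shared between groups. In deviations from group means, same-numbered libraries correlated over 0.1 in all 3 pairs only between Col-0 at 30 and 37 DAS (0.523, 0.432 and 0.174) and at 37 and 44 DAS (0.207, 0.114 and 0.199), and the block left the calls of these comparisons as they were. Alternatives were DESeq2 1.42.0, RLE factors, library size alone, a stricter filter on low counts (10 CPM in 3 libraries), no filter, the replicate block, only the 2 groups compared, one fit of all libraries and leaving out each library. A covariate of flower organ markers and the removal of 3 libraries that stood apart were added after the data had been seen.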

Additional observations from a re-analysis of the deposited data

Results flagged for a closer look

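The difference of an overexpressor from Col-0 changed between 30 and 44 DAS by the interaction test of edgeR for each of the 9 antenna genes, in both lines, and every change was toward lower levels (n = 3 libraries in each of the 4 groups entering a contrast). In *35S::SLIM1 #17* the log2 change of the difference was -1.617 for *LHCA1*, -1.017 for *LHCA2*, -1.303 for *LHCA3* and -1.403 for *LHCA4*. For the minor PSII antenna of the same line it was -1.12 for *LHCB4.1*, -1.435 for *LHCB4.2*, -1.178 for *LHCB4.3*, -1.402 for *LHCB5* and -1.677 for *LHCB6*. In *35S::SLIM1 #25* it was -1.959 for *LHCA1*, -1.37 for *LHCA2*, -1.7 for *LHCA3* and -1.993 for *LHCA4*. The minor PSII antenna genes of *#25* had -1.448 for *LHCB4.1*, -2.147 for *LHCB4.2*, -0.746 for *LHCB4.3*, -1.861 for *LHCB5* and -2.227 for *LHCB6*. The lines share the Col-0 libraries of both days, and with 1 harvest day per age the part of age and that of the day cannot be told apart.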

How the results depend on the processing

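All 18 calls of lower antenna genes at 44 DAS and all 8 of Col-0 from 30 to 37 DAS kept their side under every alternative. Of 4284 alternatives for single genes 65 lost and 62 gained a call, 0 reversed, and 125 changed sign with no call. Counts of called genes that moved by over 1.5 times were as follows, the cause not tested. With DESeq2, *#25* against *#17* had 6 higher at 37 DAS (0 by edgeR) and 1 lower at 30 DAS (0), Col-0 from 37 to 44 DAS 5 higher (3) and 0 lower (1), *slim1-cr* at 44 DAS 2 higher (1), *#25* from 30 to 37 DAS 2 lower (0) and *slim1-cr* in that interval 4 lower (2). RLE factors gave 5 higher and 0 lower in Col-0 from 37 to 44 DAS. Library size alone gave 1 higher there, 0 higher in *#25* at 37 DAS (1), 2 lower in *#25* from 30 to 37 DAS, 1 lower in the interaction of *#17* at 37 DAS (0) and 1 lower in *slim1-cr* from 37 to 44 DAS (0). One fit of all libraries gave 4 higher in *#25* against *#17* at 37 DAS and 1 lower at 30 DAS, and 2 higher in *slim1-cr* at 44 DAS. With only the 2 groups compared, *slim1-cr* had 0 higher at 44 DAS, 6 higher from 37 to 44 DAS (3) and 0 lower from 30 to 37 DAS, and *#25* against *#17* 1 lower at 30 DAS. With no filter, *slim1-cr* had 0 higher at 44 DAS and Col-0 0 lower from 37 to 44 DAS. With the stricter filter, *#25* had 2 and *slim1-cr* 4 lower from 30 to 37 DAS. The flower marker covariate gave 0 for *#17* against *EV* (1), for *#25* higher at 37 DAS and for Col-0 lower from 37 to 44 DAS. Without the libraries apart, *#25* had 0 higher at 37 DAS and 1 lower than *#17* at 30 DAS, Col-0 0 lower from 37 to 44 DAS, *slim1-cr* 5 lower from 30 to 37 DAS and the interaction of *#17* at 37 DAS 1 lower.

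The replicate block changed 1 call, *LHCB4.2* in *#25* at 37 DAS, which left 0 higher. With 1 library left out, counts ranged from 0 to 1 for *#17* against *EV*, *#25* higher at 37 DAS, the interaction of *#17* at 37 DAS, *#25* below *#17* at 30 DAS, *#25* lower from 30 to 37 DAS and Col-0 lower from 37 to 44 DAS. The range was 0 to 7 for *#25* above *#17* at 37 DAS, 1 to 4 for Col-0 higher from 37 to 44 DAS, 0 to 2 for *slim1-cr* higher at 44 DAS, 0 to 3 for *#17* lower at 37 DAS and 0 to 4 for *slim1-cr* lower from 30 to 37 DAS. With 3 libraries a group, the SE of a log2FC against Col-0 at 44 DAS was 0.108 to 0.209 for the 9 genes.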
